A study of Nicotiana tabacum with 12 samples.

Results

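A pair of NCED3 genes and a carotenoid isomerase gene of tobacco (Nicotiana tabacum) are described here in leaf RNA: LOC107827644 (NCED3), LOC107799511 (NCED3, also listed as NCED3-1) and LOC107805441 (CRTISO). They are 3 of the 61526 genes in the count table, and all 3 were among the 39207 genes that passed a filter on low counts. The 3 genes were chosen by name with their difference between transgenic and untransformed plants in these same 12 libraries already known. Their values in that contrast are therefore given as a description, and nothing is read from whether they were called there. These 3 genes are tested for differences among the transgenic lines and in quantities that do not use the contrast. Other genes of the pathway are given with their tests in that contrast, from lists that were also drawn up with earlier results known, so they are not independent support.

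Carotenoids are built in the plastid, and carotenoid isomerase turns the poly-cis intermediate of the desaturation steps into all-trans lycopene, from which the leaf xanthophylls are made. 9-cis-epoxycarotenoid dioxygenases (NCED) cleave 9-cis xanthophylls to xanthoxin, the step that limits the synthesis of abscisic acid in many plants. Abscisic acid accumulates in leaves short of water and closes stomata.

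The plants were burley tobacco of cultivar TN90, grown in a field. CK was untransformed TN90, and every transgenic line carried NtYb1 (EGY2, a chloroplast membrane protease) behind the constitutive 35S promoter. The lines, named P2.4a, P3.9a and P9.10a, are green-stemmed segregants of primary transformants, and each group has 3 libraries of upper leaves frozen before maturity. The study asked how carbon and nitrogen metabolism differ with the genotype at the Yb loci. The treatment text gives the P3 plant another number than the titles do and includes wording on inoculated roots, so samples were grouped by title and line field. The sources used here do not give plant age or the number of plants per library, so the spread between libraries may be partly technical.

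Libraries held 13536964 to 18444571 counts. The transgene was not analysed here, because the reference table links no identifier to its symbol, so the labels were not checked against it. Summed leaf markers (14 genes of the photosynthetic apparatus) reached 18250 to 20610 CPM (counts scaled to a common library size) in CK and 16890 to 23348 in the lines, while the root marker TobRB7 stayed between 0.498 and 1.91 CPM in all 12 libraries. Root-listed genes of nicotine synthesis (5 genes, 3 of them at 0) summed to 61.9 to 71.2 CPM in CK and 43.2 to 65.2 in the lines. Flower markers (5 genes, 2 of them at 0) summed to 47.2 to 49.9 CPM in CK and 29.8 to 68.7 in the lines. Dividing-cell markers (5 genes) summed to 25.5 to 37.9 CPM in CK and 35.6 to 63.8 in the lines. The single trichome marker was at 60.2 to 67.4 CPM in CK and 58.8 to 136 in the lines. The 2 vascular markers summed to 154 to 207 CPM in CK and 194 to 242 in the lines. The part of these cell types in the values below was not tested. P3.9a replicate 1 stood apart from the other libraries on the first principal component (score -77.4, against -26.5 to 40.3 for the other 11), so values that rest on it are given with and without it.

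LOC107827644 encodes one of the NCED enzymes. In CK it was at 19.9, 23.6 and 25.7 CPM in replicates 1, 2 and 3. In P2.4a it was at 13.5, 14.4 and 16.0 CPM, and in P9.10a at 14.7, 12.9 and 10.2 CPM. In P3.9a it was at 26.0, 15.5 and 15.1 CPM. All libraries of P2.4a and P9.10a were below every CK library. P3.9a replicate 1 was above every CK library, and the other 2 libraries of that line were below. P3.9a replicate 1 (25.96 CPM) exceeded CK replicate 3 (25.74 CPM) by less than the counting error of either (4.99% and 5%). The means were 23.1 ± 2.96 CPM in CK, 14.7 ± 1.26 in line P2.4a, 18.8 ± 6.16 in line P3.9a and 12.6 ± 2.23 in line P9.10a (SD, n = 3 each), or 63.5%, 81.6% and 54.6% of CK in the 3 lines in that order. The libraries held 133 to 426 reads of this gene. In bulk leaf RNA, fewer cells expressing a gene and less of its RNA per cell cannot be told apart.

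LOC107799511, the second NCED3 gene, had a similar order. In CK it was at 23.8, 32.2 and 33.0 CPM. In P2.4a it was at 18.0, 18.0 and 23.7 CPM, and in P9.10a at 21.0, 19.7 and 12.9 CPM. In P3.9a it was at 31.6, 21.9 and 23.0 CPM. The other 8 transgenic libraries were below every CK library, and P3.9a replicate 1 lay within the CK range. P2.4a replicate 3 (23.70 CPM) was below CK replicate 1 (23.76 CPM) by less than the counting error of either (5.17% and 5.08%). CK replicate 1 was the lowest CK library for both NCED3 genes. The means were 29.7 ± 5.13 CPM in CK, 19.9 ± 3.28 in line P2.4a, 25.5 ± 5.31 in line P3.9a and 17.9 ± 4.37 in line P9.10a (SD, n = 3 each), or 67.1%, 85.9% and 60.2% of CK.

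LOC107805441, the carotenoid isomerase gene, differed less between the groups. In CK it was at 50.5, 56.2 and 52.6 CPM. In P2.4a it was at 51.8, 43.8 and 46.2 CPM, in P3.9a at 42.2, 43.8 and 41.0 CPM, and in P9.10a at 45.6, 51.9 and 46.6 CPM. Of the 9 transgenic libraries, 7 were below every CK library, while P2.4a replicate 1 and P9.10a replicate 2 lay within the CK range. The share of all genes with at least 7 below was not computed, so nothing is read from this count. The means were 53.1 ± 2.90 CPM in CK, 47.3 ± 4.10 in line P2.4a, 42.3 ± 1.40 in line P3.9a and 48.1 ± 3.39 in line P9.10a (SD, n = 3 each), or 89.0%, 79.7% and 90.5% of CK. P3.9a was thus the highest of the 3 lines for both NCED3 genes and the lowest for CRTISO.

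**Figure D1:**
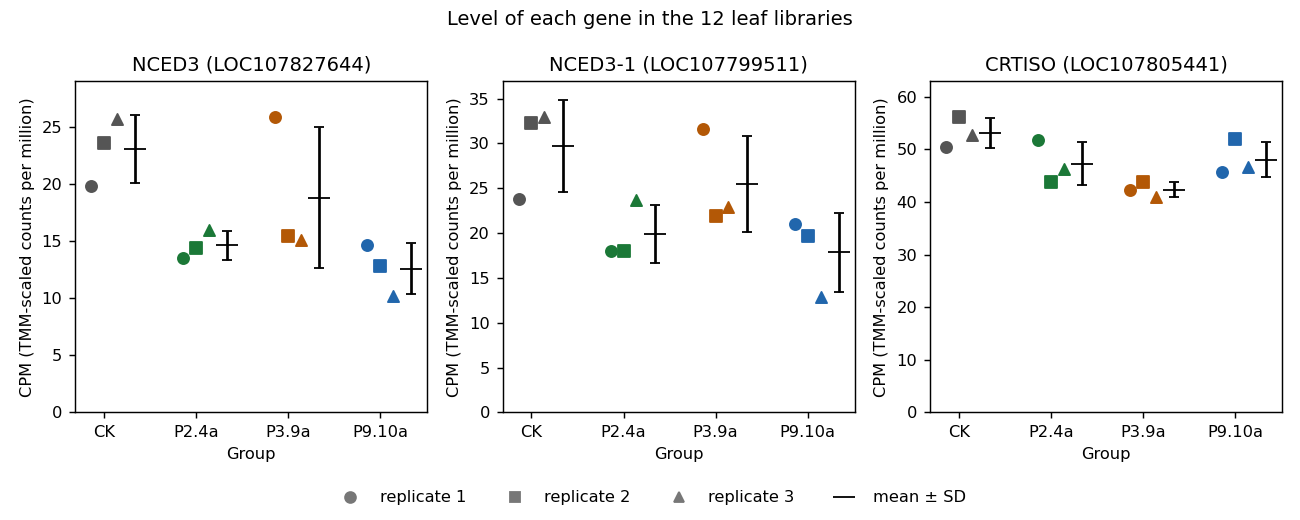
Level of each gene (CPM, TMM-scaled, y axis from 0) in the 12 leaf libraries by group (x axis); marker shapes are replicate numbers, and bars are the group mean ± SD. For LOC107827644, P3.9a replicate 1 sits at 26.0 CPM, just above the highest CK library, while the other transgenic libraries lie between 10.2 and 16.0 CPM.

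The plot of levels by group shows that 1 library sets the mean of P3.9a for the NCED3 genes. Without P3.9a replicate 1 the mean of the other 2 P3.9a libraries was 15.3 CPM for LOC107827644 (15.1 and 15.5) and 22.4 CPM for LOC107799511 (21.9 and 23.0). For CRTISO that mean was 42.4 CPM, so the value of this gene did not rest on that library. On the log2 scale P3.9a replicate 1 was 0.76 above the mean of its group mates for LOC107827644, a deviation that none of the other 11 libraries exceeded (0.42 at most). For LOC107799511 it was 0.49 above them (0.66 at most elsewhere), and for CRTISO it was 0.01 below them (-0.01).

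The fitted log2 difference between the mean of the 3 lines and CK was -0.61 (SE 0.15) for LOC107827644, -0.51 (SE 0.16) for LOC107799511 and -0.21 (SE 0.09) for CRTISO. By line, LOC107827644 differed from CK by -0.65 in line P2.4a, by -0.29 in line P3.9a and by -0.87 in line P9.10a (SE 0.20, 0.19 and 0.20). LOC107799511 differed by -0.58, -0.22 and -0.73 (SE 0.20 each). CRTISO differed by -0.17, -0.33 and -0.14 (SE 0.11 each). The P3.9a values moved with single libraries of that line. Without P3.9a replicate 1 they were -0.59, -0.40 and -0.32 for LOC107827644, LOC107799511 and CRTISO. Without replicate 2 they were -0.17, -0.12 and -0.35, and without replicate 3 they were -0.15, -0.15 and -0.30. These 3 line contrasts share the CK libraries. Over all genes edgeR called 3 (0.00765%), 14 (0.0357%) and 5 (0.0128%) for P2.4a, P3.9a and P9.10a against CK, respectively, and nothing is read from these shares for the 3 genes.

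For the mean of the 3 lines, edgeR's quasi-likelihood test with Benjamini-Hochberg adjustment at 0.05 called 15 of 39207 genes (0.0383%), 3 higher (0.00765%) and 12 lower (0.0306%), and none of the 3 genes was among them. Without P3.9a replicate 1 it called 740 of 39628 genes (1.87%), among them LOC107827644 and neither of the other two. DESeq2 called 453 genes (1.16%), and without CK replicate 2 edgeR called 48 (0.121%), again with none of the 3. P3.9a replicate 1, left out for the call of LOC107827644, was the transgenic library with that gene above every CK library. The excess over the highest CK library was less than counting error. As the genes were chosen on this contrast, nothing is read from these calls. LOC107827644 and LOC107799511 each had 8 of 9 transgenic libraries below all CK libraries, and 4.9% of the genes tested had at least 8 below. For LOC107799511 that count includes P2.4a replicate 3, which lay below CK replicate 1 by less than counting error. All 9 were below CK for 1.73% of genes and above CK for 0.9%.

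**Figure D2:**
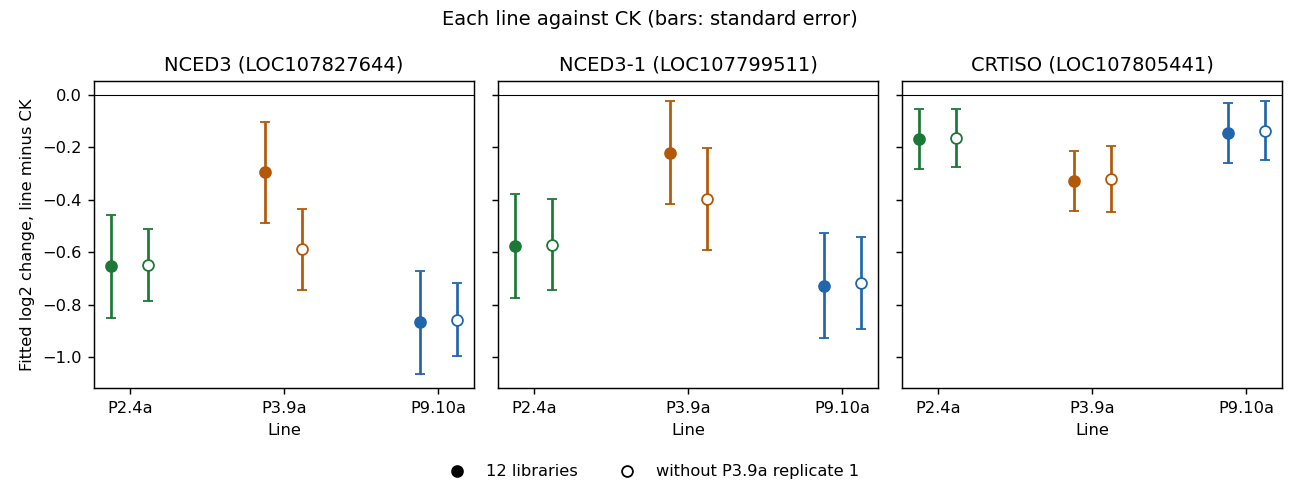
Fitted log2 difference of each line from CK (y axis, 0 means the CK level) for the 3 genes; filled points are fitted values from all 12 libraries, open points are those without P3.9a replicate 1, and bars are ± 1 SE. With 12 libraries P9.10a has the lowest value for both NCED3 genes (-0.87 and -0.73) and P3.9a for CRTISO (-0.33).

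The differences among the lines do not use the CK levels and could be tested. Their errors come from the fit of all 12 libraries, so the spread within CK enters them. Over all genes, the F test among the 3 lines called 3 of 39207 genes (0.00765%). None of the 3 genes was called. For LOC107827644 the highest and lowest lines were 0.57 apart on the log2 scale (edgeR F test, unadjusted p = 0.0326, adjusted p = 1.00). For LOC107799511 they were 0.51 apart (edgeR F test, unadjusted p = 0.0600, adjusted p = 1.00), and for CRTISO 0.18 apart (edgeR F test, unadjusted p = 0.250, adjusted p = 1.00). Thus 1 of the 3 had an unadjusted p under 0.05, against 1134 of all genes tested (2.89%). Without P3.9a replicate 1 the spread was 0.27 for LOC107827644, 0.32 for LOC107799511 and 0.18 for CRTISO.

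The 3 pairs of lines gave 9 tests for the 3 genes, none past the threshold. Both NCED3 genes were higher in P3.9a than in P9.10a, by 0.57 for LOC107827644 (unadjusted 95% interval 0.15 to 1.00, edgeR unadjusted p = 0.0113, adjusted p = 0.999) and by 0.51 for LOC107799511 (0.08 to 0.94, edgeR unadjusted p = 0.0239, adjusted p = 0.999). Of all genes, 2 were called between these lines (0.0051%). P2.4a had values between theirs: it differed from P3.9a by -0.36 for each NCED3 gene (intervals -0.78 to 0.06 and -0.78 to 0.07), and from P9.10a by 0.21 (-0.21 to 0.64) and 0.15 (-0.28 to 0.58) for LOC107827644 and LOC107799511. The differences with P3.9a rested in part on its replicate 1. Without that library P3.9a was above P9.10a by 0.27 (SE 0.16) for LOC107827644 and 0.32 (SE 0.20) for LOC107799511 (edgeR adjusted p = 0.993 for both). P2.4a then differed from P3.9a by -0.06 (SE 0.16) and -0.17 (SE 0.20), in the same order (edgeR adjusted p = 1.00 for both). The genes called were 2 (0.0051%) between P2.4a and P3.9a and 1 (0.00255%) between P2.4a and P9.10a.

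For CRTISO the differences were -0.18 between P3.9a and P9.10a (interval -0.43 to 0.06), 0.16 between P2.4a and P3.9a (-0.08 to 0.40) and -0.02 between P2.4a and P9.10a (-0.27 to 0.22). In the order of levels from P9.10a through P2.4a to P3.9a, no neighbouring pair differed beyond its spread for either NCED3 gene. The same held for CRTISO in the order P3.9a, P2.4a, P9.10a. All 9 intervals are wide enough to hold differences of 0.22 or more on the log2 scale.

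The counts of the NCED3 genes were also set against each other within each library, a ratio that needs no scaling between libraries. LOC107827644 made up 43.9 ± 1.63% of the counts of the NCED3 pair in CK, 42.6 ± 2.1% in line P2.4a, 42.1 ± 2.77% in line P3.9a and 41.7 ± 2.45% in line P9.10a (SD, n = 3 each). Single libraries ran from 39.5% in P9.10a replicate 2 (exact 95% binomial interval 35.2 to 44.0%) to 45.6% in CK replicate 1 (41.9 to 49.3%). P3.9a replicate 1, in which both genes were high, had 45.1% (41.8 to 48.5%). The 3 lines differed in mean share by 0.925 percentage points at most (exact permutation test over 9 libraries, 1680 arrangements, p = 0.875). These shares compare counts, not levels per length, and the intervals cover counting error only. The sources used here do not say how reads that match both copies were counted, so the split between the pair is uncertain.

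Within groups the NCED3 genes were high or low in the same libraries, and no such relation with CRTISO was detected. Across the 12 libraries, after the group means of log2 CPM were removed, the NCED3 genes correlated at r = 0.893 and rho = 0.916 (exact permutation within groups, 1296 arrangements, p = 0.00309 and 0.00386, or 0.00926 and 0.0116 adjusted over the 3 pairs). Without the libraries farthest from the median (P3.9a replicate 1 and P9.10a replicate 3) r was 0.902. LOC107827644 and CRTISO had r = -0.0074 and rho = 0.0769 (exact permutation p = 0.974 and 0.830, the same after adjustment), and r = -0.0755 without those libraries. LOC107799511 and CRTISO had r = 0.157 and rho = 0.210 (exact permutation p = 0.670 and 0.566, adjusted 0.974 and 0.830), and r = 0.102 without them. Reads shared by the NCED3 copies would add to their correlation, and their part in it was not tested. The pooled within-group SD was 0.28 and 0.30 on the log2 scale for the NCED3 genes (LOC107827644 and LOC107799511) and 0.09 for CRTISO.

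**Figure D3:**
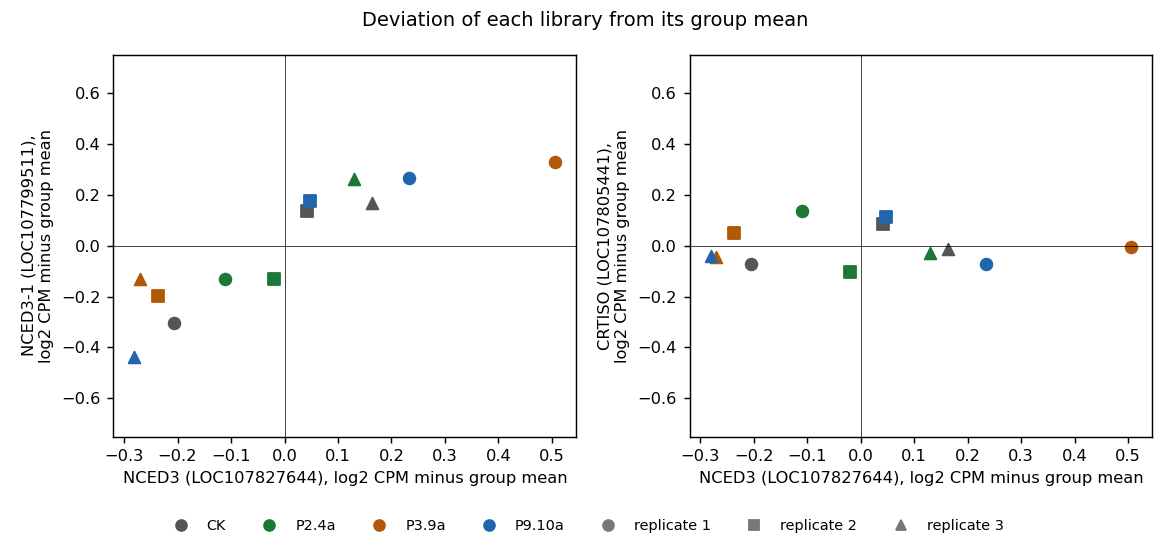
Deviation of each library from its group mean on the log2 CPM scale for LOC107799511 (left) and CRTISO (right) on the y axes against LOC107827644 on the x axes; each point is 1 of 12 libraries, coloured by group and shaped by replicate number. The NCED3 pair follows a rising line (r = 0.893), and CRTISO shows none against LOC107827644 (r = -0.0074).

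The genes with the profile most like each of the 3 were taken by Pearson's r of log2 CPM over the 12 libraries, among 33204 other genes. These correlations include the group differences and share library and scaling, and they are a description. LOC107827644 was most like the other NCED3 gene, LOC107799511, at r = 0.954, followed by LOC107764910 (0.954), LOC107831726 (0.939), LOC107812705 (0.938) and LOC107799608 (0.938), none of which carries a symbol. In turn LOC107799511 was most like LOC107827644, then LOC107831726 (0.954), LOC107811991 (0.953), LOC107799608 (0.950) and LOC107759078 (0.940). Thus LOC107831726 and LOC107799608 were among the 5 nearest to both. With group means removed, LOC107799511 ranked 180th for LOC107827644 and LOC107827644 ranked 94th for LOC107799511.

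Among genes with a symbol, the nearest to LOC107827644 after its partner were PP2C2 (LOC107779894, a type 2C protein phosphatase, r = 0.895, rank 30) and TAF1 (LOC107819448, r = 0.894, rank 32). Those nearest to LOC107799511 were CPIP2a (LOC107759603, r = 0.923, rank 10) and TAF1 (r = 0.861, rank 88). CRTISO had other neighbours. It was most like LOC107828062 (r = 0.945), LOC107774342 (0.935), LOC107781873 (0.923), LOC107819874 (0.915) and LOC107812081 (0.915), all without a symbol. The nearest with a symbol were c1pp (LOC107827185, r = 0.912), the nitrilase gene NIT4A (LOC107804379, r = 0.843) and TAF-3 (LOC107806524, r = 0.820). With group means removed, PP2C2 and TAF1 ranked 2604th and 606th for LOC107827644. CPIP2a and TAF1 then ranked 5th and 1031st for LOC107799511. For CRTISO, c1pp, NIT4A and TAF-3 then ranked 97th, 273rd and 2847th.

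Other members of the pathway were taken from lists of symbols, and 1081 of the 61526 identifiers carry a symbol. The lists therefore cover part of the pathway. No gene was found for phytoene desaturase, zeaxanthin epoxidase, abscisic aldehyde oxidase, abscisic acid breakdown or the abscisic acid receptors. Of 46 genes found by symbol, 42 were tested. GGPPS4, CCD7, MAX4 and OLP1 were not, with 45, 0, 0 and 0 counts in all. For the mean of the lines against CK, edgeR called 0 of the 42. Of the 42, 12 (28.6%) had an unadjusted p under 0.05, against 4452 of all 39207 genes (11.4%). By sign, 10 had values above 0 and 32 below, so 76.2% were negative against 49.7% of all genes tested, and the median was -0.19 against 0.00 for all genes (0.00205). Without CK replicate 3 the median was -0.10 and 27 were negative.

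Supply of the plastid isoprenoid precursors did not share the direction. Of 10 tested genes of that list 5 were above and 5 below 0, with a median of 0.01. Of these genes 3 (30.0%, against 11.4% of all genes) had an unadjusted edgeR p under 0.05. DXS (LOC107773391), for the entry enzyme of the plastid route, was at 17.2 ± 1.79 CPM in CK (SD, n = 3) and 25.7 CPM on average in line P2.4a, 28.2 CPM in line P3.9a and 25.5 CPM in line P9.10a. All 9 transgenic libraries were above CK, as for 0.9% of all genes tested. Its log2 difference was 0.63 (SE 0.15, edgeR adjusted p = 0.111). This gene was called by DESeq2 (0.63) and by edgeR without P3.9a replicate 1 (0.68). The other genes for this enzyme had higher levels and smaller differences. LOC107818796 was at 383 CPM in CK, with 0.21 (SE 0.14, edgeR adjusted p = 0.614). LOC107790348 was at 120 CPM in CK, with 0.03 (SE 0.11, edgeR adjusted p = 0.943). GGPPS2, a geranylgeranyl diphosphate synthase, had a value of 0.39, and the isomerase ipi2 had -0.48.

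Of the 10 other carotenoid synthesis genes, 9 were below 0, with a median of -0.18, and 0 had an unadjusted p under 0.05. The phytoene synthases psy-1 and PSY2 had values of -0.25 (SE 0.13, edgeR adjusted p = 0.503) and -0.20. ORANGE (OR), a chaperone of phytoene synthase, had -0.30, and the beta-carotene hydroxylases CrtR-b1 and BCH2 had -0.21 and -0.37. Lycopene epsilon-cyclase (LYCe) was the gene above 0, at 0.13. The second CRTISO gene, LOC107832559, was at 22.3, 18.9 and 24.6 CPM in CK. It was at 24.0, 21.4 and 19.7 CPM in P2.4a, 14.3, 23.2 and 20.5 CPM in P3.9a, and 19.8, 19.6 and 23.7 CPM in P9.10a. The groups overlapped in all 3 lines, and its log2 difference was -0.09 (SE 0.13, edgeR adjusted p = 0.850).

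Of 6 tested genes of carotenoid cleavage, 5 were below 0, with a median of -0.30. An unadjusted edgeR p under 0.05 was found for 3 of them (50.0%, against 11.4% of all genes). The carotenoid cleavage dioxygenases CCD1 (LOC107817154) and CCD1-1 (LOC107830214) form volatile apocarotenoids. Both were lower in all 9 transgenic libraries than in CK, as were 1.73% of all genes tested. Their log2 differences were -0.30 (SE 0.11, edgeR adjusted p = 0.304) and -0.30 (SE 0.11, edgeR adjusted p = 0.292). The other CCD1 gene, CCD1-2 (LOC107817468), had -0.16 (SE 0.14, edgeR adjusted p = 0.695). For CCD1-2, 5 of the 9 transgenic libraries were below all CK libraries and 1 was above them. The share of all genes with such a count was not computed, so nothing is read from it. One CCD4 gene (LOC107791323) had -0.66 (SE 0.33) and the other 0.03. The third NCED3 gene, NCED3-2 (LOC107822968), was low: 48, 111 and 34 reads in CK, 14, 20 and 14 in P2.4a, 38, 52 and 23 in P3.9a, and 19, 29 and 56 in P9.10a. P2.4a was below CK throughout, the other lines overlapped CK, and the log2 difference was -1.08 (SE 0.38, edgeR adjusted p = 0.304).

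Genes of abscisic acid signalling and response were below 0 in 13 of 16 cases, with a median of -0.34, and 6 (37.5%, against 11.4% of all genes) had an unadjusted p under 0.05. GolS1, a galactinol synthase gene, was at 14.6, 4.44 and 13.8 CPM in CK and at means of 5.66 CPM in line P2.4a, 3.22 CPM in line P3.9a and 4.07 CPM in line P9.10a. Its CK replicate 2 lay among the transgenic libraries, and its log2 difference was -1.37 (SE 0.27, edgeR adjusted p = 0.0786). TAF-3 was lower than CK in all 9 transgenic libraries (-0.50, SE 0.11, edgeR adjusted p = 0.0877). Such a separation was seen for 1.73% of all genes tested. The phosphatase PP2C2 had -0.53 (SE 0.14, edgeR adjusted p = 0.155), the lipid transfer protein NtLTP3 -0.62 and GolS -1.69. GolS had 11, 18 and 40 reads in CK. The other phosphatase gene, PP2C1, had -0.25 (SE 0.26, edgeR adjusted p = 0.763). The SnRK2-type kinases PK11-C5, PK11-C1 and OSAK had -0.07, -0.30 and 0.04. ABF1 had 0.18 (SE 0.12), whereas ABF2 had -0.46 (SE 0.22, edgeR adjusted p = 0.471). TAF1, TAF-2 and phi-2 had -0.38, -0.44 and -0.14 (edgeR adjusted p = 0.300, 0.504 and 0.700). P5CS, for proline synthesis, had 0.23.

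These calls depended on single libraries and on the tool. Without P3.9a replicate 1, 7 of the 42 were called in edgeR, 1 higher (DXS, 0.68) and 6 lower: PP2C2 (-0.59), TAF-2 (-0.60), TAF-3 (-0.49), NtLTP3 (-0.67), GolS1 (-1.41) and GolS (-2.02). DESeq2 called 4, namely DXS (0.63), PP2C2 (-0.53), TAF-3 (-0.50) and GolS1 (-1.37). Without CK replicate 2, GolS1 (-1.75) was the gene called. P3.9a replicate 1 differed from its group mates by over 1 on the log2 scale in 6 of the 42 genes (14.3%, against 7.43% of all genes), namely GGPPS1 (-2.13), a CCD4 gene (1.37), ABF2 (1.02), TAF-2 (1.15), GolS (1.61) and AP24 (3.27).

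**Figure D4:**
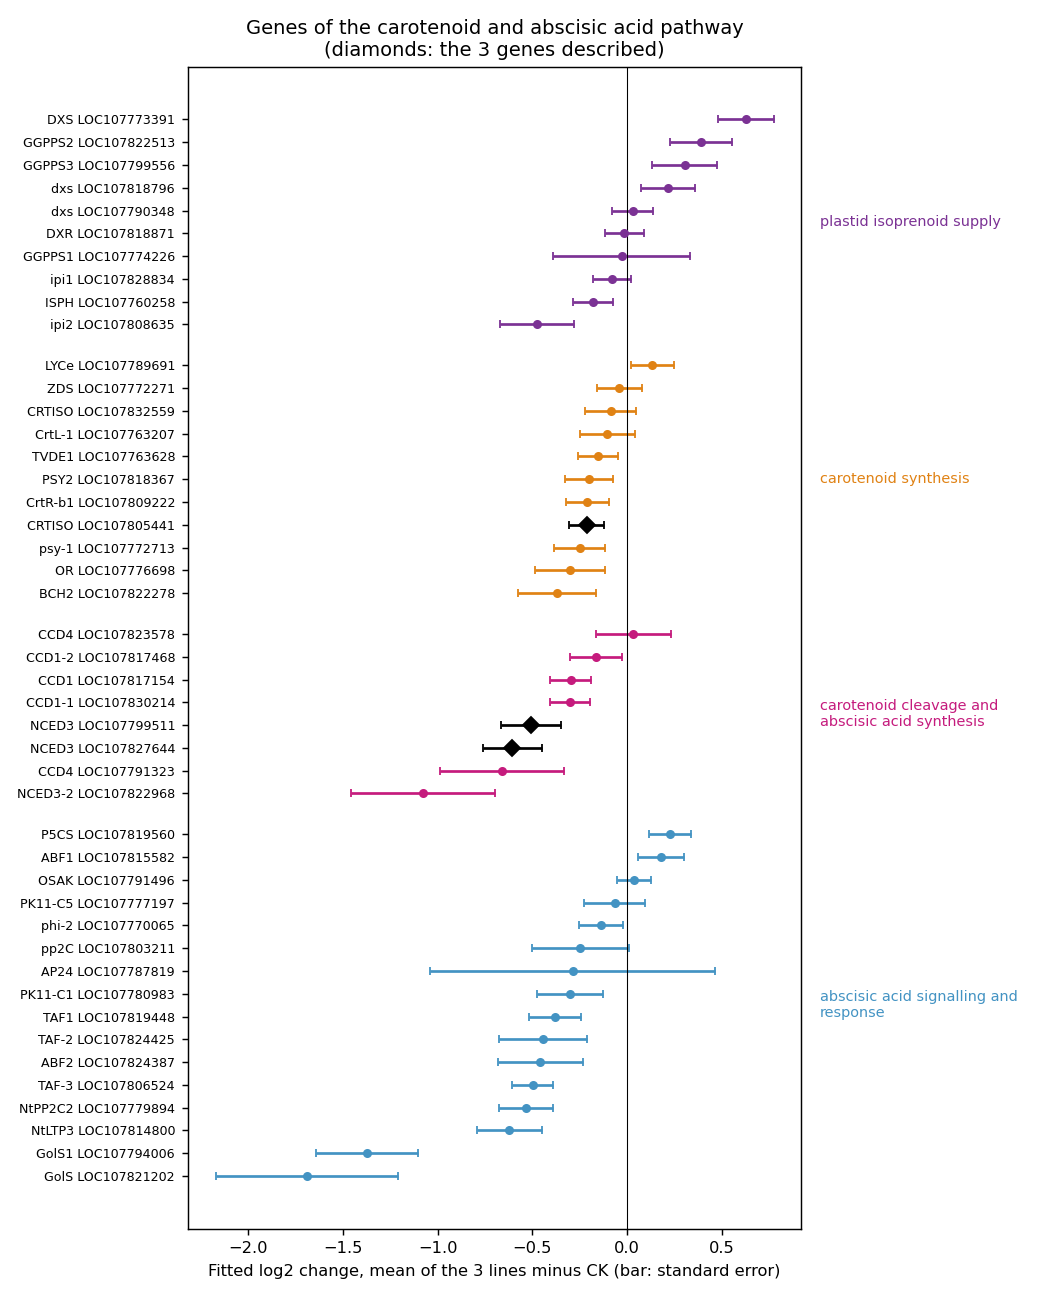
Fitted log2 difference of the mean of the 3 lines from CK (x axis) for the pathway genes tested, by list, with the 3 genes described as black diamonds; points are fitted values, bars ± 1 SE. Most points outside the isoprenoid supply list lie left of 0 (32 of 42 other genes over all lists). The DXS gene LOC107773391 lies right of it at 0.63.

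Genes next to the 3 on their assembly scaffolds were compared by order in assembly ASM71507v2. The nearest tested genes beside LOC107827644 had log2 differences of -0.07 (LOC107784797) and 0.13 (LOC107807361). Beside LOC107799511 they were 0.07 (LOC107799509) and -0.31 (LOC107799508, edgeR adjusted p = 0.426), and beside CRTISO 0.08 (LOC107827097) and -0.08 (LOC107827120). None of these 6 was called in edgeR.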

How the data were processed

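Leaf RNA of 12 libraries, 3 in each of 4 groups, was sequenced. The authors deposited whole-number read counts per gene, not normalized. Per the submitters' processing notes, the tools included HISAT2 2.1.0, SAMtools and bedtools 2.25.0. The sources used here do not give the build, annotation, counting rule or strand setting, and coordinates are left out. Near-identical copies, common in this allotetraploid, could share or lose reads. Of 61526 identifiers, 49014 were in the reference gene table (assembly ASM71507v2) and 1081 had a symbol.

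Counts were fitted with edgeR 4.0.16 in R 4.3.3 (filterByExpr with minimum count 10, TMM scaling, robust quasi-likelihood, 39207 genes, 8 residual degrees of freedom, Benjamini-Hochberg adjustment at 0.05), with all 12 libraries in 1 fit. Levels are TMM-scaled CPM, and log2 CPM used a prior count of 2. Totals ran from 13536964 to 18444571 counts, and the common biological coefficient of variation was 16.4%. No pair of libraries was identical. Alternatives were DESeq2 size factors, no filter, DESeq2 1.42.0, limma-voom (limma 3.58.1), a block on the replicate number and leaving out each library. The fit was tested on simulated data.

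The 3 genes and the pathway lists were chosen with earlier results of these data known. Named genes are the 3, pathway list members (at least those with the smallest p in each list), and for each of the 3 the 5 genes and the 3 genes with a symbol of highest Pearson's r, among genes with mean log2 CPM of 1 or more. Neighbouring genes, and the list members in which P3.9a replicate 1 deviated, were chosen after values were seen.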

Additional observations from a re-analysis of the deposited data

Results flagged for a closer look

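Among the 9 transgenic libraries, LOC107827644 in P3.9a replicate 1, at 26.0 CPM, stood apart from the next highest at 16.0 CPM. The gap was 0.632 of the whole range, above Dixon's 95% critical value for 9 values. Chance alone marks about 1 in 20 such groups, and both ends of all 3 genes were examined. The same library was highest for LOC107799511 without passing this limit (gap 0.421 of the range). It was also the library with the most extreme first principal component.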

How the results depend on the processing

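The log2 differences of the 3 genes from CK kept their sign under every alternative run. For the mean of the lines they ranged over the 12 fits with 1 library left out from -0.70 to -0.52 (LOC107827644), -0.65 to -0.43 (LOC107799511) and -0.25 to -0.17 (LOC107805441). The other 5 alternatives gave -0.62 to -0.60, -0.51 to -0.51 and -0.22 to -0.21. Genes called for the mean of the lines numbered 15, and 82 with no filter, 453 with DESeq2 and 6 to 740 with 1 library left out. Genes called among the lines numbered 3, and 46 with DESeq2 and 2 to 6 with 1 library left out. Other pathway genes called numbered 0, and 4 with DESeq2 and 0 to 7 with 1 library left out. The cause of these shifts was not tested. Between P2.4a and P9.10a the sign turned for CRTISO with P2.4a replicate 2 (0.028) or P9.10a replicate 2 (0.036) left out, over a range of -0.095 to 0.036. It also turned for LOC107799511 without P9.10a replicate 3 (-0.033, range -0.033 to 0.28). For LOC107827644 the difference of P3.9a from CK was -0.59 without P3.9a replicate 1. The share of LOC107827644 in the NCED3 pair differed between lines by 0.432 to 2.26 percentage points with 1 library left out (lowest exact permutation p = 0.568).

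With a replicate block, 4 genes were called for the mean of the lines, and the 3 genes had -0.62, -0.51 and -0.21. No pairing by replicate number was detected, and the labels name none: same-numbered libraries correlated at -0.309 to 0.265 in their deviations from group means (18 pairs, 4 over 0.1), and 3 of 12 libraries correlated best with their own number. The lowest library held 133 reads of LOC107827644, and GolS had 3 reads in its lowest libraries, so counting error is larger for such genes.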
